A study of Rattus norvegicus with 36 samples.

Results

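The 200 liver genes described here varied most between arrays of the same dose group, and they were selected on that spread alone. For each gene named by 1 symbol on the array, the probe set with the highest mean over 36 arrays stood for the gene. Of 14217 such genes, 7986 had a mean log2 level of 6 or more, and the 200 with the largest pooled SD within the 6 dose groups were taken, which is 2.50% of those 7986. The livers came from male Harlan Sprague Dawley rats, 7 weeks old at the start, that received corn oil (vehicle, 5 ml/kg) or decabromodiphenyl ether (decaBDE, a brominated flame retardant) in corn oil by gavage on 5 consecutive days. Each group had 6 arrays, with vehicle alone or with doses of 0.1 mg/kg, 0.959 mg/kg, 9.59 mg/kg, 95.9 mg/kg and 959 mg/kg, and every group, vehicle included, shared the strain, the oil and the sampling of the left lobe 1 day after the last dose. The labels do not say outright that each array is its own rat, so p-values measure the spread between these arrays. The study asked what decaBDE does to liver transcripts. The comparison made here asks which transcripts differed between arrays whatever the dose, and which of them differed together.

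Liver is a tissue whose RNA changes within hours. Hepatocytes follow feeding and fasting, the clock, glucocorticoids and growth hormone, which adult male rats release in pulses. Bcl6 and Socs2 are well-known growth hormone responsive genes of rat liver, Fgf21 is a secreted hormone of nutrient stress, and Cyp7a1 is the rate-limiting enzyme of bile acid synthesis with a strong daily rhythm. Interferon-stimulated genes respond to cytokines in hepatocytes and in Kupffer cells, the resident macrophages of the liver. A block of tissue also holds stellate cells, vessels and capsule in amounts that depend on where it was cut. Neither the hour of necropsy, the feeding state nor a hybridisation batch is given in the labels.

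Spread within dose groups ran over members from an SD of 0.415 to 2.33 on the log2 scale, with a median of 0.537. The other 7786 genes had a median SD of 0.122. Of the members, 117 had an SD of 0.5 or more and 11 an SD of 1 or more. The members were not dimmer than the rest, with a median mean level of 7.84 against 7.95. Their highest array lay above their lowest by 2.21 log2 units at the median, against 0.535 for the other genes. These values chose the members and carry no test. The last members inside the limit were Ifi27l2b, Ubn1 and Gbp7 at SDs of 0.416, 0.415 and 0.415, and Sbspon, Ahctf1 and Irgm followed just outside at 0.415, 0.414 and 0.414, so the limit falls within a continuous range. The median SD of the members was 0.518 in vehicle arrays, 0.591 at 0.1 mg/kg, 0.493 at 0.959 mg/kg, 0.482 at 9.59 mg/kg, 0.539 at 95.9 mg/kg and 0.540 at 959 mg/kg. The members spread within the vehicle group and within every dosed group.

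**Figure D1:**
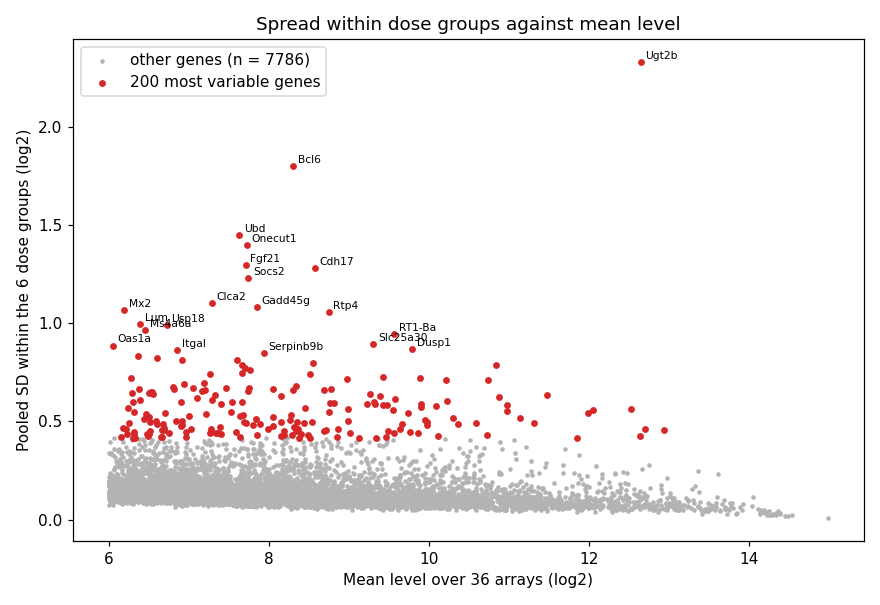
Pooled SD within the 6 dose groups (vertical, log2) against mean level over 36 arrays (horizontal, log2) for 7986 genes, with the 200 members in red and the 20 of highest SD named. Members occur at nearly all levels, and Ugt2b (SD 2.33) and Bcl6 (SD 1.80) stand highest.

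The 20 genes of highest SD cover several kinds of biology. Ugt2b, a glucuronosyltransferase of steroid and drug clearance, came first at 2.33. Bcl6, a transcriptional repressor, followed at 1.80, then the ubiquitin-like modifier Ubd at 1.45, the liver transcription factor Onecut1 at 1.40, Fgf21 at 1.29, the cadherin Cdh17 at 1.28 and Socs2, an inhibitor of growth hormone signalling, at 1.23. Clca2 had an SD of 1.10, the stress gene Gadd45g of 1.08, and the interferon-stimulated genes Mx2, Rtp4, Usp18 and Oas1a of 1.07, 1.05, 0.99 and 0.89. The matrix proteoglycan Lum stood at 1.00, the macrophage gene Ms4a6a at 0.97, the MHC class II gene RT1-Ba at 0.95 and the mitochondrial carrier Slc25a30 at 0.89. Dusp1, a phosphatase that ends MAP kinase signals, the leukocyte integrin Itgal and the protease inhibitor Serpinb9b closed the 20 at 0.87, 0.87 and 0.85.

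Gene lists written for liver cell types and programmes show where the members fall. Of the genes on each list with a level of 6 or more, members were 16 of 36 for the interferon response, 9 of 22 for antigen processing and MHC, 8 of 24 for Kupffer cells and macrophages, 8 of 17 for immediate early genes and 7 of 19 for stellate cells and matrix. Fasting, gluconeogenesis and glucocorticoid genes gave 12 of 37, growth hormone and sex-biased genes 8 of 34, fatty acid synthesis 7 of 28, the amino acid stress genes of ATF4 6 of 25 and bile acid genes 5 of 20. The cell cycle gave 4 of 22, acute phase proteins 4 of 29, the clock 3 of 15 and PPARA targets 3 of 35. No member came from 29 heat shock and ER stress genes, 11 endothelial genes or 30 genes of secreted hepatocyte proteins. The last list had a median SD of 0.0642, and its mean level stayed between 13.34 and 13.49 in every array. Of the members, 99 were on no list, and a gene may be on several.

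Pairs of members varied together more often than pairs of all 7986 genes. Pearson's r of the deviations from the dose-group mean, over the same 36 arrays, was 0.5 or more in 9.52% of 19900 member pairs and in 2.46% of pairs of all genes. It was -0.5 or less in 1.27% of member pairs and in 0.757% of all pairs. The typical pair was not closer, with a median absolute r of 0.167 for members and 0.164 for all genes, so the excess lay in blocks. A gene with a large SD also carries a smaller share of measuring noise, which alone raises r, and the contribution of this was not tested. Average-linkage clustering at r 0.5 gave 6 clusters of 5 or more genes that held 109 members and 4 clusters of 4 genes. Another 26 members were in clusters of 2 or 3, and 49 stood alone. The clusters were found in these values and are described with no test.

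**Figure D2:**
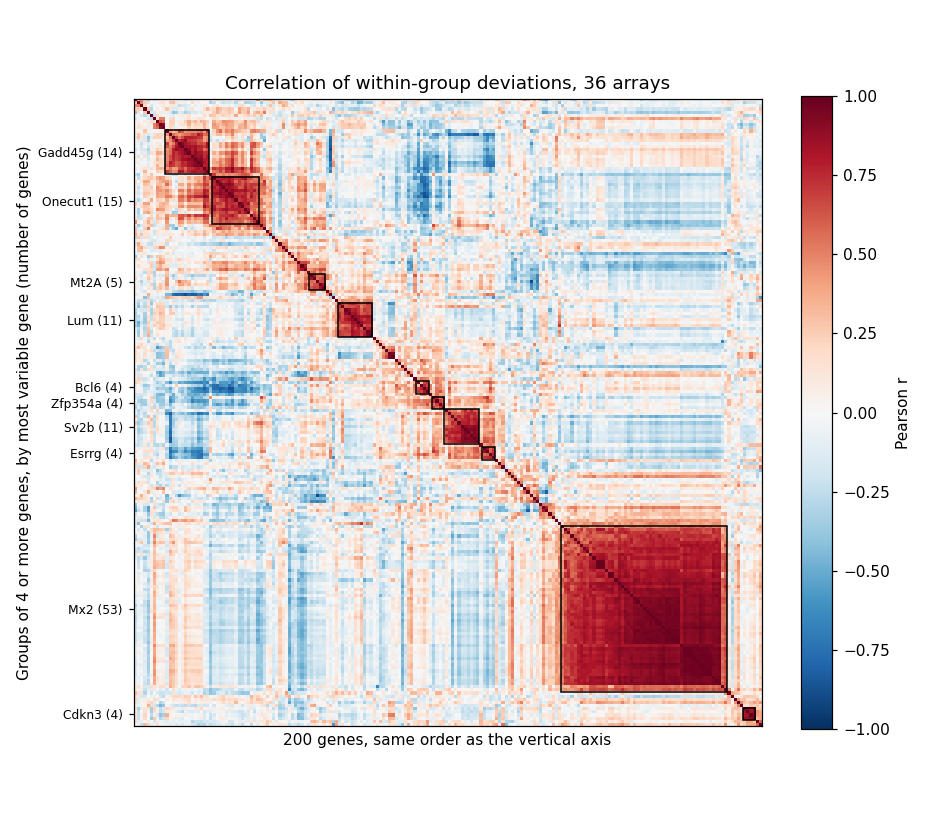
Pearson r between the deviations of the 200 members from their dose-group means over 36 arrays (colour), both axes in the same clustered order, with clusters of 4 or more genes outlined and labelled by their gene of highest SD and their number of genes. The block of 53 genes led by Mx2 is the largest, and the blue fields show that Bcl6 and its partners ran opposite to the blocks of Onecut1 and, in part, Gadd45g.

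The largest cluster joined 53 genes of interferon response, antigen presentation and macrophages, with a median r between them of 0.82. It held 15 interferon genes, 9 MHC and proteasome genes and 8 Kupffer cell genes by the lists. Mx2, an interferon-induced GTPase that blocks viruses, had lowest, median and highest log2 levels of 4.74, 6.80 and 7.57 in vehicle arrays, 4.23, 5.59 and 7.28 at 0.1 mg/kg, 3.89, 6.00 and 6.53 at 0.959 mg/kg, 4.56, 6.54 and 7.38 at 9.59 mg/kg, 4.75, 6.81 and 7.52 at 95.9 mg/kg, and 5.15, 6.60 and 7.61 at 959 mg/kg. The groups overlapped throughout, and each held an array far below its own median. Fcgr3a, an immunoglobulin receptor of macrophages, had 5.75, 6.95 and 7.30 in vehicle arrays, 5.24, 6.13 and 7.36 at 0.1 mg/kg, 5.58, 6.44 and 6.80 at 0.959 mg/kg, 5.74, 6.60 and 7.13 at 9.59 mg/kg, 5.52, 7.03 and 7.66 at 95.9 mg/kg, and 6.03, 6.78 and 7.38 at 959 mg/kg. Its groups overlapped in the same way. Averaged over the 53 genes, vehicle replicate 2 lay 0.98 below its group mean and 95.9 mg/kg replicate 5 lay 0.96 below, whereas 0.1 mg/kg replicates 6 and 2 lay 0.80 and 0.65 above.

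The letters of a DNA element through which interferon factors act were found in many promoters of these genes. RefSeq promoter windows (build GRCr8, 250 bases before to 50 after the start) were at hand for 150 members, 40 of them in the cluster of Mx2. The interferon-stimulated response element was searched on both strands as GAAA, any 2 bases, and GAAA again. It was found in 16 of those 40 windows (40%), in 19 of the windows of all 150 members (12.7%) and in 1034 of 27457 windows of all genes (3.77%). A match is a description of the letters and not a shown binding site. Stretches from interferon, MHC and macrophage genes are given because they show the element across the 3 kinds of gene, each read 5′ to 3′ along its gene with the match in capitals.
Oas1a, chr12:41330405-41330460, plus strand: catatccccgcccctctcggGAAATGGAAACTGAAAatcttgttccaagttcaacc
Irf7, chr1:205800063-205800112, minus strand: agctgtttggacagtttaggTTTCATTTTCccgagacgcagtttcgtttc
Gbp2, chr2:234005676-234005725, plus strand: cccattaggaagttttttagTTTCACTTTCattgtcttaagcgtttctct
Apol9a, chr7:111028250-111028305, minus strand: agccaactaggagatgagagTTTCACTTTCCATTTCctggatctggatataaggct
Psmb8, chr20:4657006-4657055, minus strand: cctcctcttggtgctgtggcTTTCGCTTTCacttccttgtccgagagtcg
Fcgr3a, chr13:85782511-85782560, plus strand: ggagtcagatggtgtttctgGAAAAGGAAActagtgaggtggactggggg
Ctss, chr2:185775340-185775389, plus strand: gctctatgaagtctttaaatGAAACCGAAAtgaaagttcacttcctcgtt
Oas1a and Apol9a each hold overlapping matches. In Irf7, Gbp2, Apol9a and Psmb8 the element reads on the opposite strand.

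The spread of these genes was measured against single members in a model across all probe sets. Each probe set was fitted with limma on dose group and the level of 1 anchor gene. The anchor was the member of highest SD on its list, except where that gene already stood for another list. Fgf21 stood for fatty acid synthesis and Bcl6 for fasting genes. Chac1 (ATF4), Cyp7a1 (bile acid) and Socs2 (growth hormone) were therefore the next in SD on their lists. The slope is the change in log2 level per log2 unit of the anchor, and a call is a Benjamini-Hochberg adjusted p under 0.05 over all probe sets. With Mx2, 53 of 199 other members had a positive slope and 0 a negative one, against 1.6% of all probe sets positive and 0.19% negative. Members were chosen for large spread, which makes a slope easier to call, so the higher share says nothing by itself. Usp18, the brake on interferon signalling, had a slope of 0.89 (SE 0.04, adjusted p 5.3e-16), the transcription factor Irf7 of 0.72 (SE 0.04, adjusted p 1.9e-14) and Isg15, a ubiquitin-like modifier, of 0.59 (SE 0.04, adjusted p 7.0e-14). Ms4a6a and Ms4a6bl1, membrane proteins of macrophages, had slopes of 0.86 and 0.59, and the interferon-induced Ifi27 had 0.41. Of the 52 other genes in the cluster of Mx2, 51 were called with it. The 2 calls outside were Obp3, a pheromone-carrying protein, and Hsd17b6, a steroid dehydrogenase. Clusters and slopes rest on the same within-group deviations, so calls inside an anchor's own cluster were largely fixed in advance.

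Calls were also counted on the full lists, members and non-members alike. With Mx2 the slope was positive and called for 31 of 35 interferon genes, 19 of 22 MHC genes and 22 of 24 Kupffer cell genes, among them Cd163, Csf1r and Folr2. Median slopes were 0.287, 0.238 and 0.289 for these lists, against -0.0013 for all probe sets. With Fcgr3a, 51 of 199 members were positive and 0 negative, against 1.76% and 0.132% of all probe sets, and the calls covered 32 of 36 interferon, 21 of 22 MHC and 21 of 23 Kupffer cell genes. LOC100910973 had the smallest adjusted p with Fcgr3a (slope 0.88, SE 0.04, adjusted p 2.2e-17), and Aif1, Ly86 and Slfn2 followed with slopes of 0.71, 0.72 and 0.67. Across the 36 arrays, Mx2 and Fcgr3a deviated together with r 0.88 (rho 0.83), and r was 0.79 to 0.97 within each dose group.

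RT1-Ba, in the same cluster, rested on few arrays. Its levels were 9.03 to 10.48 in vehicle arrays, and 8.53 or more in all groups but 1. At 0.1 mg/kg its lowest, median and highest values were 5.06, 9.36 and 10.48. RT1-Ba was called with Mx2 (slope 0.48, SE 0.13, adjusted p 0.035 by limma) and with Fcgr3a (slope 0.78, SE 0.21, adjusted p 0.041). In the anchor pairs RT1-Ba had r 0.54 with each (rho 0.65 and 0.64, adjusted p 0.0032 and 0.0078 by permutation). Without the 2 arrays most extreme for Mx2, its r with Mx2 was 0.57. Without the 2 arrays most extreme for RT1-Ba itself, its r with Fcgr3a was 0.66. The low value at 0.1 mg/kg came from replicate 1 and made up 52.5% of the gene's whole within-group sum of squares. With RT1-Ba as the anchor, 0 of 199 members were called in either direction by limma (background 0.00322% positive and 0% negative). At an unadjusted p under 0.05 there were 55 members (27.6%), against 7.24% of all probe sets, and members were chosen for spread. Without 0.1 mg/kg replicate 1 there were 48 calls, and without 0.1 mg/kg replicate 5, 95.9 mg/kg replicate 4 or 0.959 mg/kg replicate 5 there were 16, 11 and 3. The other 3 probe sets of RT1-Ba did not follow it, with r of -0.36, -0.26 and -0.23 at mean levels of 7.36, 7.09 and 7.30. Ephx2, an epoxide hydrolase, ran opposite to RT1-Ba with r -0.65, its most negative partner.

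In bulk tissue, fewer Kupffer cells and less RNA of these genes per cell cannot be told apart. The mean log2 level of the 24 Kupffer cell markers ran from 8.00 to 8.83 in vehicle arrays, 7.76 to 8.75 at 0.1 mg/kg, 7.90 to 8.49 at 0.959 mg/kg, 8.01 to 8.59 at 9.59 mg/kg, 7.79 to 8.88 at 95.9 mg/kg and 8.18 to 8.85 at 959 mg/kg. All 24 were at a level of 6 or more. Of lymphocyte and plasma cell markers, 5 of 23 reached that level, and of neutrophil markers 0 of 9. The mean over the 53 genes also moved with an RNA quality measure, the actin 3′ minus 5′ difference, at r -0.45. That difference ran from 1.01 to 1.46 over the 36 arrays. Modelled in the same way, it was called for 5 members positive and 2 negative of 200, against 0.963% and 0.312% of all probe sets. At an unadjusted p under 0.05 there were 74 of 200 members (37%), against 14.4% of all probe sets, and the median slope of the members was -0.55 against -0.013. The 5 called positive were Egfr, Tbx3, Esrrg, Znf750 and Elapor1, the 2 called negative were Lgals9 and C1qa, and with 1 array left out the count ran from 1 to 24. With this difference in the model, calls with Mx2 and Fcgr3a stayed within 1.5 times of their number and those with RT1-Ba numbered 29.

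The second programme set Bcl6 and Cyp7a1 against Onecut1, Socs2, Fgf21 and Chac1. Bcl6 had lowest, median and highest log2 levels of 6.10, 9.79 and 10.55 in vehicle arrays, 6.53, 9.41 and 10.15 at 0.1 mg/kg, 6.29, 7.66 and 10.48 at 0.959 mg/kg, 5.82, 7.90 and 10.46 at 9.59 mg/kg, 5.41, 7.83 and 9.49 at 95.9 mg/kg, and 6.06, 8.44 and 10.20 at 959 mg/kg. Every group held both low and high arrays, and all overlapped. Onecut1 had 6.53, 7.19 and 10.40 in vehicle arrays, 7.14, 7.37 and 9.37 at 0.1 mg/kg, 5.93, 7.91 and 10.26 at 0.959 mg/kg, 5.91, 7.67 and 9.23 at 9.59 mg/kg, 7.08, 8.10 and 9.42 at 95.9 mg/kg, and 5.19, 6.70 and 8.72 at 959 mg/kg. Its groups overlapped as well, and it ran opposite to Bcl6 with r -0.87, from -0.75 to -0.997 within each dose group. Fgf21 had 6.52, 7.59 and 10.66 in vehicle arrays, 6.31, 7.71 and 9.03 at 0.1 mg/kg, 6.82, 8.15 and 8.999 at 0.959 mg/kg, 6.48, 7.99 and 9.17 at 9.59 mg/kg, 6.33, 7.14 and 9.42 at 95.9 mg/kg, and 5.50, 6.83 and 9.87 at 959 mg/kg. The 3 highest single values came from vehicle and 959 mg/kg arrays.

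Socs2 had 6.86, 7.93 and 9.15 in vehicle arrays, 7.44, 7.87 and 9.41 at 0.1 mg/kg, 5.69, 8.24 and 9.36 at 0.959 mg/kg, 5.26, 8.13 and 9.16 at 9.59 mg/kg, 6.35, 8.12 and 9.12 at 95.9 mg/kg, and 5.26, 7.04 and 8.85 at 959 mg/kg. Cyp7a1 had 9.40, 11.10 and 11.61 in vehicle arrays, 9.65, 11.22 and 11.65 at 0.1 mg/kg, 10.22, 11.07 and 11.50 at 0.959 mg/kg, 8.96, 11.18 and 11.78 at 9.59 mg/kg, 9.81, 10.88 and 10.91 at 95.9 mg/kg, and 9.49, 11.08 and 11.73 at 959 mg/kg. For Cyp7a1 the lowest array lay farther from the median than the highest in every group, and the groups of both genes overlapped. Chac1, a glutathione-cleaving enzyme of the ATF4 response, had no more than 7.73 in any dosed array, against 5.94, 6.64 and 10.03 as lowest, median and highest in vehicle arrays. All its groups overlapped.

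The cluster of Onecut1 held 15 genes with a median r of 0.72. Beside Onecut1, Fgf21, Socs2 and Chac1 it contained Slc25a30, the mTOR inhibitor Ddit4, the glucocorticoid-induced kinase Sgk1, the lipoprotein lipase regulator Angptl8, the pseudokinase Trib3, the EGF receptor inhibitor Errfi1, the transcription factor Klf10, the lipolysis inhibitor G0s2, the lipogenic regulator Mid1ip1, Rsrp1 and Rtp3. Its mean was highest in vehicle replicate 5, at 1.33 above the group mean, and in 959 mg/kg replicate 1, at 1.21. It was lowest in vehicle replicate 4, at -0.82, and 0.959 mg/kg replicate 5, at -0.81. Bcl6 and Cyp7a1 clustered with Sall1, a zinc finger factor, and Nceh1, a cholesterol ester hydrolase. The mean of these 4 genes was lowest in vehicle replicate 5 (-1.50) and highest in 9.59 mg/kg replicate 1 (1.16), and it correlated with the mean of the Onecut1 cluster at r -0.84.

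With Fgf21 as the anchor, 21 of 199 members had a positive slope and 6 a negative one, against 1.28% and 0.168% of all probe sets. All 14 other genes of its cluster were among the positive calls, which the shared deviations largely fixed in advance. Slc25a30 had a slope of 0.61 (SE 0.05, adjusted p 3.4e-09), Onecut1 of 0.93 (SE 0.10, adjusted p 7.0e-08) and Ddit4 of 0.52 (SE 0.05, adjusted p 1.1e-07). Rtp3, Chac1 and Trib3 had slopes of 0.29, 0.54 and 0.38. The negative calls were Bcl6 (-1.03, adjusted p 9.7e-05), Cyp7a1 (-0.44, adjusted p 0.00022), Stac3, Sall1, Zfp354a and Nceh1. Of the ATF4 list, 6 of 24 genes rose with Fgf21, namely Atf4, Nupr1, Ddit4, Ddit3, Trib3 and Chac1, and 0 fell, while its median slope was 0.039.

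With Bcl6, 6 members were positive and 17 negative, against 0.348% and 0.699% of all probe sets. The most negative by p were Rtp3 (slope -0.20), Onecut1 (-0.68, SE 0.07, adjusted p 2.9e-08), Slc25a30 (-0.41), Bhlhe40 (-0.37), Trib3 (-0.26) and Socs2 (-0.53). The positive ones were Cyp7a1 (0.35, adjusted p 4.6e-06), Nceh1, Sall1, the pericentral transcription factor Tbx3, the ubiquitin ligase Rnf125 and Pck1, the gate enzyme of gluconeogenesis. Socs2 gave 16 positive and 5 negative calls (background 0.941% and 0.267%), led by Onecut1, Slc25a30, Fgf21 and Sgk1 on the positive side and by Nceh1 and Bcl6 on the negative side. Without 959 mg/kg replicate 1 the calls with Socs2 numbered 14 in all. Chac1 gave 15 and 2 (background 0.548% and 0.0387%), with Fgf21 first at a slope of 1.33 (SE 0.14, adjusted p 2.4e-06). Cyp7a1 gave 4 and 18 (background 0.229% and 0.573%), with Bcl6, Sall1, Nceh1 and Zfp354a positive and Rtp3 and Onecut1 first among the negative. Of 25 ATF4 genes, 5 fell with Bcl6 and 0 rose, and 5 fell with Cyp7a1 while Stbd1 rose.

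Correlations between the 10 anchor genes were computed as a family of 45 pairs on deviations from dose-group means, with 100000 permutations of arrays within dose groups, two-sided. Adjusted p was under 0.05 for 15 pairs, 9 of them positive and 6 negative, and for the same 15 by Spearman's rho. Bcl6 and Cyp7a1 had r 0.81 (rho 0.81), and r was 0.81 again without the 2 arrays farthest from the median of Bcl6. In each pair given from here on, the 2 arrays left out were the farthest ones of the gene named first. Bcl6 and Socs2 had r -0.77 (rho -0.79, -0.77 without 2 arrays), and Fgf21 and Bcl6 had r -0.74 (rho -0.69, -0.69 without 2 arrays). Fgf21 and Chac1 had r 0.85 (rho 0.89, 0.83 without 2 arrays), and Fgf21 and Socs2 had 0.77 (rho 0.81, 0.74 without 2 arrays). For each of these 5 pairs and for Mx2 with Fcgr3a the permutation p of r was 1e-05, the smallest these permutations can give, and the adjusted p was 6.4e-05. The sign was the same within all 6 dose groups for each of them.

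The size of r differed between dose groups in strong and weaker pairs of this family alike. Each r within a group rests on 6 arrays, and differences in r between groups were not tested. Bcl6 and Cyp7a1 ran from 0.40 at 95.9 mg/kg to 0.98 at 0.1 mg/kg. Fgf21 and Bcl6 ran from -0.38 at 95.9 mg/kg to -0.95 in vehicle arrays. Fgf21 and Cyp7a1 had r -0.72 (rho -0.72, adjusted p 0.00011 by permutation, -0.64 without 2 arrays), from -0.18 at 95.9 mg/kg to -0.97 in vehicle arrays. Fgf21 and Dusp1 had r 0.51 (rho 0.51, adjusted p 0.015 by permutation, 0.45 without 2 arrays). Dusp1 and Chac1 had r 0.52 (rho 0.45, adjusted p 0.030 by permutation, 0.49 without 2 arrays). In vehicle arrays these were 0.99 and 0.96, and at 9.59 mg/kg they were -0.58 and -0.83, opposite in sign. The interferon and macrophage anchors did not pass with any of the metabolic ones. Mx2 and Bcl6 had r 0.17 (rho 0.076, adjusted p 0.72 by permutation, 0.044 without 2 arrays), negative at 0.1 mg/kg (-0.91) and positive in the other 5 groups. Mx2 and Fgf21 had r -0.21 (rho -0.15, adjusted p 0.56 by permutation, -0.070 without 2 arrays).

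**Figure D3:**
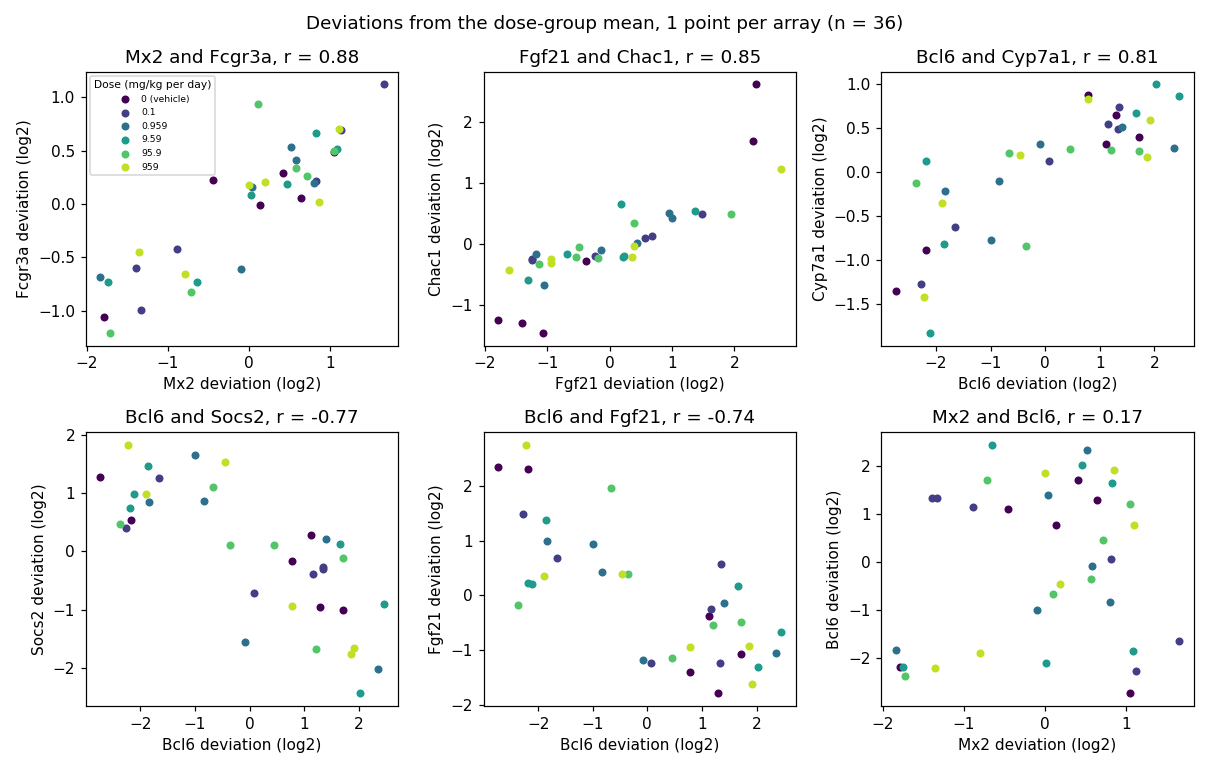
Deviation from the dose-group mean (log2) of 2 members against each other in 6 pairs, 1 point per array (n = 36), coloured by dose from vehicle to 959 mg/kg. Mx2 runs with Fcgr3a (r 0.88), Fgf21 with Chac1 (0.85) and Bcl6 with Cyp7a1 (0.81), Bcl6 runs opposite to Socs2 (-0.77) and Fgf21 (-0.74), and Mx2 and Bcl6 show no common line (0.17).

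The cluster led by Gadd45g joined 14 genes with a median r of 0.73, of which 6 were on the immediate early list, whose genes are switched on quickly by a signal. Those 6 were Dusp1, Jun, Dusp6, Myc, Ier2 and Ier3. The others include Foxa2 and Hhex, transcription factors of hepatocyte identity, and the cluster in full held Gadd45g, Dusp1, Bhlhe40, Rgs3, Jun, Dusp6, Myc, Hhex, Gadd45a, Foxa2, Ier2, Frat2, Ier3 and Exph5. Dusp1 had lowest, median and highest levels of 8.85, 9.14 and 11.32 in vehicle arrays, 9.37, 9.52 and 11.11 at 0.1 mg/kg, 8.86, 9.50 and 11.44 at 0.959 mg/kg, 9.04, 9.43 and 10.47 at 9.59 mg/kg, 8.84, 9.82 and 11.30 at 95.9 mg/kg, and 9.10, 9.86 and 10.30 at 959 mg/kg. The groups overlapped, and the highest array lay farther from the median than the lowest in every group but that at 959 mg/kg. The cluster mean was highest in 0.959 mg/kg replicate 1 (0.98) and vehicle replicate 2 (0.96). With Dusp1 as the anchor, 13 members were positive and 2 negative, against 0.264% and 0.0193% of all probe sets. Ier2 had a slope of 0.52 (SE 0.04, adjusted p 8.8e-11), Jun of 0.71 (SE 0.08, adjusted p 3.0e-06), Gadd45g of 1.03 (SE 0.12, adjusted p 3.0e-06), and Gadd45a, Ier3 and Foxa2 of 0.53, 0.38 and 0.47.

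The 2 members that ran against Dusp1 were Depp1, a fasting-induced gene of FOXO control (slope -0.41, SE 0.06, adjusted p 4.0e-05), and the clock repressor Cry1 (-0.32, adjusted p 0.042). Depp1 and Gadd45g had r -0.88 over the 36 arrays, negative in all 6 groups. Of the immediate early list, 8 of 16 genes rose with Dusp1 and 0 fell, Junb, Dusp5 and Zfp36 among them although they were no members. Without vehicle replicate 2 the members called with Dusp1 numbered 9 in place of 15. Egr1, the zinc finger factor of the same list, stayed outside the cluster with an SD of 0.71, and its closest partner was Myc at r 0.53. The cyclic AMP element TGACGTCA was found in 2 of 11 promoter windows of the cluster and in 1.91% of all windows.

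Matrix genes made a programme of their own. It held 11 genes with a median r of 0.72, namely Lum and Dcn, small proteoglycans of collagen fibres, Col1a2, Col6a3, the calcification inhibitor Mgp, Smoc2, the smooth muscle protein Tagln, the caveolar protein Cav1, the lipase Lpl, S100a6 and Msln, a marker of the mesothelium that covers the liver. Lum had lowest, median and highest levels of 5.08, 5.97 and 6.82 in vehicle arrays, 4.71, 5.65 and 7.51 at 0.1 mg/kg, 5.17, 6.29 and 7.14 at 0.959 mg/kg, 5.52, 6.72 and 8.12 at 9.59 mg/kg, 5.79, 7.07 and 7.36 at 95.9 mg/kg, and 5.56, 5.99 and 8.90 at 959 mg/kg. The groups overlapped, and the mean of the 11 genes was highest in 959 mg/kg replicate 5, 1.25 above its group. With Lum, 9 members were positive and 0 negative, against 0.283% and 0% of all probe sets. All 9 were among the 10 other genes of the cluster, an overlap that the shared deviations largely fixed in advance. Dcn led with a slope of 0.57 (SE 0.05, adjusted p 9.4e-09), then Mgp with 0.37, Lpl with 0.38 and Smoc2 with 0.34. Without 959 mg/kg replicate 5 there were 5 calls in place of 9. Of 18 stellate cell and matrix genes, 7 rose with Lum, Col1a1 and Col3a1 among them. The mean level of that list was 7.65 to 8.20 in vehicle arrays, 7.71 to 8.34 at 0.1 mg/kg, 7.66 to 8.41 at 0.959 mg/kg, 7.91 to 8.34 at 9.59 mg/kg, 8.03 to 8.57 at 95.9 mg/kg and 7.75 to 8.71 at 959 mg/kg. Lox, a collagen cross-linking enzyme on the same list with an SD of 0.74, stood outside the cluster.

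**Figure D4:**
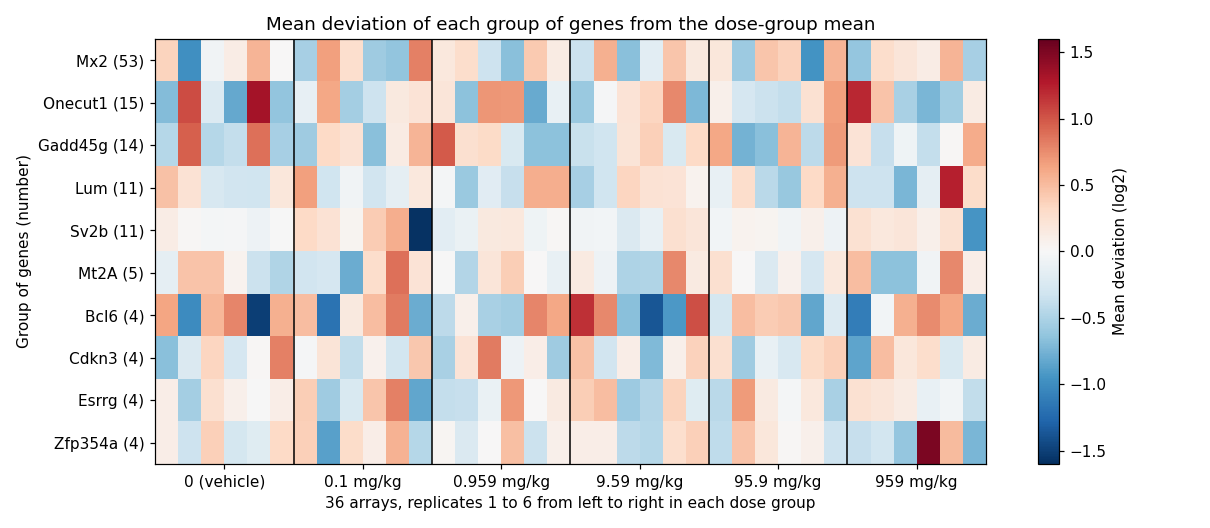
Mean deviation from the dose-group mean (colour, log2) of the 10 clusters of 4 or more genes, named by their gene of highest SD with the number of genes, in 36 arrays ordered by dose from vehicle to 959 mg/kg and by replicate. Deviations are centred within each dose group, so every group holds arrays above and below its mean by construction. The Sv2b cluster was low mainly in 0.1 mg/kg replicate 6 (-1.58) and 959 mg/kg replicate 6 (-0.95).

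One cluster rested largely on a single array. Its 11 genes, Sv2b, Ankrd17, Mgll, Srrm2, Nipbl, Rnf125, Trim25, Ddx6, Ccnd2, N4bp1 and Ubn1, were all most extreme in 0.1 mg/kg replicate 6, where their mean lay 1.58 below the group. Their median r was 0.76 with that array and 0.56 without it. This array made up 59.0% of the sum of squares of Ankrd17, a scaffold protein, 56.6% of that of the RNA helicase Ddx6 and 55.7% of that of Ubn1, a histone chaperone subunit. Other probe sets of these genes followed the member probe set to very different degrees. Nipbl had 1 with r 0.96, Mgll had r 0.91 and 0.44, Srrm2 had 0.60 and Ankrd17 had 0.45 and 0.40, all at levels of 6 or more. Ddx6 had 1 with r 0.89 and 1 with r 0.099 to the member probe set, N4bp1 had 1 with r -0.066 and a dimmer one with r 0.58, and Ubn1 had 1 with r 0.13. Other dimmer ones, below a level of 6, had r -0.14 and 0.094 for Sv2b, 0.29 and -0.093 for Nipbl, 0.16 for Mgll and 0.25 for Ankrd17. The same array was most extreme for 18 members in all, and vehicle replicate 2 was for 28, 95.9 mg/kg replicate 5 for 18, and vehicle replicate 5 and 959 mg/kg replicate 5 for 14 each.

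Smaller clusters had sharper contents. Cdkn3, Ccnb2, Cdk1 and Cdca3, which drive or mark mitosis, had a median r of 0.86, and all 4 cell cycle members were in this cluster. Cdk1 ran from 5.36 to 7.26 over all arrays, and the mean of the 4 genes was highest in 0.959 mg/kg replicate 3 (0.84) and lowest in 959 mg/kg replicate 1 (-0.84). The cell cycle homology element TTTGAA occurred in 3 of their 4 promoter windows and in 18.1% of all windows. Zfp354a, the lysolipid transporter Mfsd2a, the phosphatidate phosphatase Lpin1 and Pck1 formed another cluster, whose mean lay 1.51 above the group in 959 mg/kg replicate 4. There Pck1 reached 13.74, Lpin1 10.31 and Zfp354a 10.07, their highest values of all arrays. Esrrg, Tbx3, Egfr and Znf750 had a median r of 0.72, and their mean moved with the actin difference at r 0.69. The contribution of RNA quality to this was not tested.

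The metallothioneins Mt2A and Mt1, metal-binding proteins induced by zinc and glucocorticoids, clustered with the clock repressor Nr1d2, the kinase Nim1k and the vesicle protein Rab30. Mt2A had lowest, median and highest levels of 9.73, 11.24 and 11.60 in vehicle arrays, 9.93, 10.75 and 12.24 at 0.1 mg/kg, 10.03, 10.54 and 11.10 at 0.959 mg/kg, 9.88, 10.78 and 11.69 at 9.59 mg/kg, 10.37, 11.02 and 11.25 at 95.9 mg/kg, and 8.84, 10.31 and 11.71 at 959 mg/kg, and its groups overlapped. Nr1d2 and Cry1 are repressors at different phases of the clock, and they ran opposite to each other with r -0.90, from -0.83 to -0.96 within each dose group. Bhlhe40, the third clock member, was placed in the cluster of Gadd45g, although its closest partner of all members was Rtp3 (r 0.92) and its most opposite one Bcl6 (r -0.81). The search pattern TGCNCNC is short and looser than the metal response core, so not every match is such a core. It was found in 50.1% of all promoter windows. The windows of Mt2A and Mt1 held 5 and 7 matches, and 0.652% of all windows held 5 or more. The stretch of Mt1 that spans its matches is shown because they lie so close together, with matches in capitals.
Mt1, chr19:10832975-10833171, minus strand: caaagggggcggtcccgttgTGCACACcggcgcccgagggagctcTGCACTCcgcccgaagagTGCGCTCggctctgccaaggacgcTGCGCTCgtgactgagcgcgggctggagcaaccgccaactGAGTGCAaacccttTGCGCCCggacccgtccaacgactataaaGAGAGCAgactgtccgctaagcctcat

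Some members took 2 separate levels in place of a continuous range. Ugt2b was at 5.60 in vehicle replicate 2, 4.70 in 0.959 mg/kg replicate 3 and 5.54 in 959 mg/kg replicate 2, and between 12.96 and 13.50 in the other 33 arrays. A second probe set of Ugt2b gave 3.39, 3.59 and 3.16 in the same 3 arrays and 8.76 to 10.20 in the other 33. No other gene of the family fell by a similar amount there, but some were low. Ugt2b7, a dim probe set, had 4.41, 4.51 and 4.30 in those 3 arrays, all below the lowest of the other 33 (4.55). Ugt2a1 was at its lowest of 36 in vehicle replicate 2, at 5.55 against 5.60 for the lowest of the other 33, and had 5.96 and 5.67 in the other two. Ugt2b1 had 11.96, 12.61 and 12.83, the first below the 12.21 that was lowest in the other 33, Ugt2b10 had 10.54, 10.41 and 10.43, Ugt2b15 had 12.30, 12.14 and 12.38, Ugt2b34l1 had 5.57, 5.67 and 5.66, and Ugt2b35 had 13.44, 13.52 and 13.51. The genes of this family are close in sequence, so a probe set may read several of them. With 33 of 36 arrays together and 3 apart, no correlation is given for Ugt2b.

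Ubd was at 4.58 to 5.66 in 8 arrays and 7.31 to 9.65 in 28, with low arrays in all 6 groups. Clca2, a chloride channel regulator, was at 5.38 to 6.29 in 11 arrays and 7.44 to 8.63 in 25, again with both levels in every group. Retsat, a retinol saturase, was at 9.92 to 10.05 in 4 arrays, 1 each at 0.1, 0.959, 9.59 and 959 mg/kg, and at 11.30 to 12.26 in the other 32. The lower level of Slc15a4, a lysosomal peptide transporter, was 5.34 to 5.77 in 7 arrays, against 6.62 to 7.55 in 29. By the bimodality coefficient, Ugt2b (0.82), Ephx2 (0.72), Tusc2 (0.68), Ddx6 (0.64) and RT1-T24-3 (0.61) ranked highest. For Tusc2, a mitochondrial tumour suppressor, 1 array (9.59 mg/kg replicate 4) gave 68.5% of the sum of squares, the highest share of all members.

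**Figure D5:**
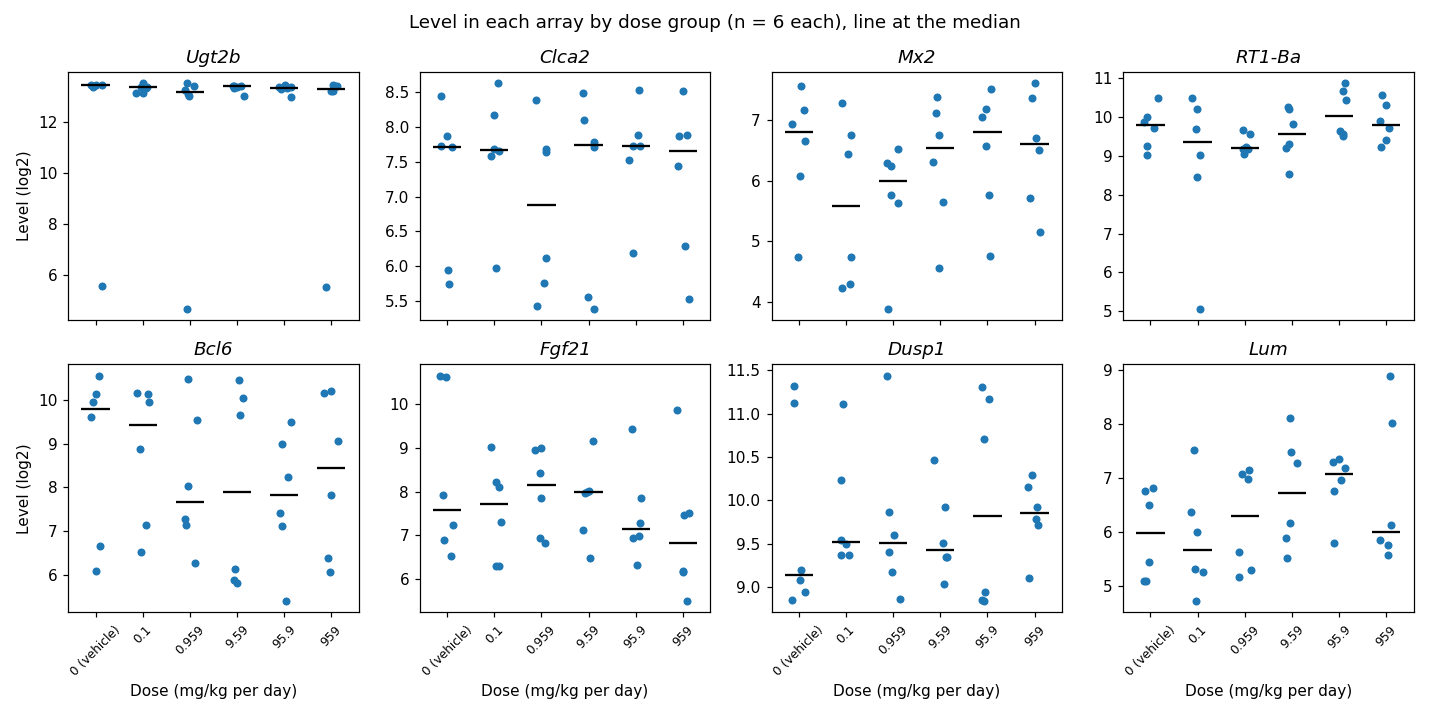
Log2 level of 8 members in each array (points) by dose from vehicle to 959 mg/kg (n = 6 each), with a line at the group median. Ugt2b has 3 arrays near 5 and 33 near 13, Clca2 has a gap between 6.29 and 7.44, RT1-Ba has 1 low array at 0.1 mg/kg, and Mx2, Bcl6, Fgf21, Dusp1 and Lum spread within every group.

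Measures that the choice of members did not use bear on how far the values repeat. For 36 members, 49 other probe sets of the same gene had a level of 6 or more. Their deviations followed those of the member probe set with a median r of 0.94, 37 with r of 0.5 or more and 8 under 0.2. Those 8 belonged to RT1-Ba, Abca1, Ddx6, N4bp1 and Ubn1. Onecut1 repeated at r 0.98 and Lox at 0.92. Dimmer second probe sets, below a level of 6, repeated Slc25a30 at 0.98, Dusp1 at 0.97 and Mx2 at 0.80. Others of that kind did not follow, as for Harbi1 (-0.83), Aif1 (-0.28) and Slfn4 (-0.12). Over all 94 other probe sets at any level, from 60 members, the median r was 0.77. Of these 94, 58 had r of 0.5 or more and 19 were under 0.2. Gene order in the RefSeq annotation (GRCr8), found for 198 members, gave 25 member pairs within 10 genes of each other, with a median r of 0.79. Most of these pairs lie inside the cluster of Mx2, and many join Psmb8, Psmb9, RT1-Ba, RT1-Da and RT1-Db1 of the same locus. All pairs of that cluster had a median r of 0.82, so the value for neighbours says nothing about closeness by itself. Psmb8 and Psmb9 of the immunoproteasome had r 0.98, RT1-Da and RT1-Db1 of MHC class II 0.98, the sterol half-transporters Abcg8 and Abcg5 0.93, Lum and Dcn 0.89 and Mt2A and Mt1 0.85. Closeness did not always go with r, as Bcl6 and Rtp4 lay 8 genes apart with r 0.29, and Usp18 and A2m lay 7 apart with r -0.50. Paralogues such as the RT1 and Gbp genes may share probes.

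DecaBDE dose was tested on the same table, and none of the members passed. The moderated F-test over the 6 groups called 0 of 200 members, against 0.135% of 31042 probe sets. Of the members 22 (11%) had an unadjusted p under 0.05, against 7.53% of all probe sets. Against vehicle, 0 members were called higher or lower at 0.1 mg/kg (background 0% higher, 0% lower), 0.959 mg/kg (0.029% and 0%), 9.59 mg/kg (0.106% and 0.00966%), 95.9 mg/kg (0.0838% and 0.00644%) or 959 mg/kg (0.103% and 0.00644%). Unadjusted p was under 0.05 for 14, 23, 8, 20 and 21 members at these doses from low to high. These are 7%, 11.5%, 4%, 10% and 10.5% of the members. Over all probe sets the shares were 3.79%, 6.06%, 8.61%, 7.01% and 6.08%. Members were chosen for a large SD within groups, which is the error term of these tests, so a change of a given size is harder to call among them than among other genes. The 5 contrasts share the vehicle arrays. The median log2 difference of the members was -0.17, -0.17, -0.12, -0.02 and -0.08 from the lowest to the highest dose, against at most 0.0059 in size over all probe sets.

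Cyp3a9, a drug-metabolising cytochrome P450, came nearest. Its lowest, median and highest log2 levels were 7.46, 7.98 and 9.02 in vehicle arrays, 7.33, 8.36 and 8.70 at 0.1 mg/kg, 7.43, 9.06 and 9.55 at 0.959 mg/kg, 8.24, 8.96 and 9.72 at 9.59 mg/kg, 8.65, 9.50 and 10.28 at 95.9 mg/kg, and 8.72, 9.45 and 10.10 at 959 mg/kg. The arrays of both high doses lay mostly above those of vehicle but overlapped with them. The log2 difference from vehicle was 1.39 at 959 mg/kg (SE 0.32, adjusted p 0.072 by limma) and 1.41 at 95.9 mg/kg (SE 0.32, adjusted p 0.077), and the F-test had an adjusted p of 0.055. With only probe sets of mean level 6 or more, these became 0.041, 0.044 and 0.035, and each also passed when certain single arrays were left out. At 9.59 mg/kg, Abcg8 was at -0.995 and Abcg5 at -0.947 against vehicle (adjusted p 0.21 and 0.24), and without 9.59 mg/kg replicate 1 Abcg8 was at -1.24 (adjusted p 0.043). At 959 mg/kg, Tsku, a secreted regulator of lipid metabolism, was at 0.91 and Inmt, a methyltransferase, at 1.27 (adjusted p 0.21 and 0.27).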

How the data were processed

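Liver RNA of 36 samples in 6 groups of 6 was measured on Affymetrix 3′ expression arrays. The deposited values are log2 RMA signals, made by the authors with the affy package per the submitters' processing notes. Versions are not given in the sources used here. RNA had to pass limits of concentration, purity and integrity, per the labels' protocols. All 36 columns were used, mapped by sample titles. Array medians ran from 5.12 to 5.21, and r between arrays across probe sets from 0.988 to 0.996. The number of arrays limits the precision.

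Of 31099 probe sets, 57 controls were left out. The platform annotation named 20826 probe sets with 1 symbol, 436 with several and 9780 with none; genes were named from the first only. Members, anchor genes and gene lists were chosen with earlier results of these data known, so no list is independent support. Named genes followed a rule: the 20 of highest SD, the 3 on each side of the limit, up to 6 per list, anchor fit and cluster, and the 5 most dominated by 1 array or most bimodal. Other genes named in the text, such as Retsat, Slc15a4, Depp1, the other Ugt2b genes, neighbouring genes and the small clusters, were chosen after their values were seen.

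Deviations from dose-group means were clustered in Python 3.11.15 (scipy 1.17.1). limma 3.58.1 (R 4.3.3) gave dose contrasts and anchor slopes, moderated with 5.12 prior degrees of freedom. Each comparison had its own Benjamini-Hochberg adjustment across the whole table, with calls at 0.05. The fits were tested on simulated data. Replicate numbers did not pair the arrays. Alternatives were other level limits and spread measures, other normalization, moderation and filters, the replicate number as a block, and each array left out. Adding the actin difference and leaving out 3 arrays together were chosen after seeing the data.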

Additional observations from a re-analysis of the deposited data

Results flagged for a closer look

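In 23 of the genes named above and the actin difference, the highest and the lowest array of each dose group were checked against the rest of their group, 144 groups in all. The gap of each such array to the nearest other array was taken as a share of the group's range. An array was picked out when this share exceeded Dixon's critical value for 6 arrays. This happened 20 times. The genes were the 20 of highest SD and the anchor genes, so they were chosen for spread within groups. Several of them also vary together. The count therefore cannot be set against the about 1 in 20 groups that chance picks out among values not chosen for spread.

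Ugt2b was low at 5.60 in vehicle replicate 2, 4.70 in 0.959 mg/kg replicate 3 and 5.54 in 959 mg/kg replicate 2. It was slightly low at 12.996 in 9.59 mg/kg replicate 6 and 12.96 in 95.9 mg/kg replicate 6, where the rest of the group was tight. Ubd was low at 5.21 in 0.1 mg/kg replicate 3, 5.07 in 0.959 mg/kg replicate 3 and 4.63 in 9.59 mg/kg replicate 6. Vehicle replicate 2 was low for Rtp4 (6.91), Ms4a6a (5.19) and Fcgr3a (5.75), and 0.959 mg/kg replicate 4 was low for Mx2 (3.89).

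Itgal was low at 4.75 in vehicle replicate 4 and at 4.37 in 95.9 mg/kg replicate 1, the array in which Cyp7a1 was also low at 9.81. Cdh17 was low at 6.67 in 9.59 mg/kg replicate 2. On the high side, Onecut1 reached 9.37 in 0.1 mg/kg replicate 2, Gadd45g 9.27 in 9.59 mg/kg replicate 6 and Chac1 7.73 in 959 mg/kg replicate 1. The actin 3′ minus 5′ difference was low at 1.01 in 95.9 mg/kg replicate 6.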

How the results depend on the processing

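Of the 200 members, 168 remained with a level limit of 5, 142 with a limit of 7, 159 by median absolute deviation, 167 by SD over its trend on level, 198 after centring arrays on their medians, 183 with the most variable probe set per gene, 177 without vehicle replicate 2, 95.9 mg/kg replicate 5 and 0.1 mg/kg replicate 6 together, and 186 to 199 without 1 array. With only probe sets of mean 6 or more, 1 member (Cyp3a9) was called by dose in the F-test, at 95.9 and at 959 mg/kg. Without 1 array the dose counts were 0 to 1 (F-test, 9.59, 95.9 and 959 mg/kg) and 0 to 0 (0.1 and 0.959 mg/kg). The single calls came without vehicle replicate 1, 0.959 mg/kg replicate 6, 9.59 mg/kg replicate 1 or 3, 95.9 mg/kg replicate 2 or 959 mg/kg replicate 1.

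Without 1 array, calls ran from 50 to 54 with Mx2, 0 to 48 with RT1-Ba, 50 to 51 with Fcgr3a, 5 to 9 with Lum, 21 to 29 with Fgf21, 20 to 26 with Bcl6, 9 to 16 with Dusp1, 15 to 19 with Chac1, 14 to 23 with Socs2, 16 to 24 with Cyp7a1 and 1 to 24 with the actin difference, and 14 to 16 anchor pairs passed. With the actin difference in the model RT1-Ba gave 29 calls, and without those 3 arrays Dusp1 gave 9. Calls with the actin difference itself, 7 in all, were 3 without moderation, 3 with a trend and robust moderation, 14 with mean 6 or more and 4 without the 3 arrays. They were 1 without 0.1 mg/kg replicate 5 or 0.959 mg/kg replicate 4, 3 or 4 without 0.1 mg/kg replicate 2, 4 or 6, 0.959 mg/kg replicate 2 or 5, 9.59 mg/kg replicate 1, 95.9 mg/kg replicate 6 or 959 mg/kg replicate 1, and 11 to 24 without 0.1 mg/kg replicate 1, 9.59 mg/kg replicate 2 or 3 or 959 mg/kg replicate 2. The cause was not tested.

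Arrays of the same replicate number did not deviate together: over 90 such pairs r ran from -0.38 to 0.41 with a median of -0.054, and 6 of 36 arrays correlated best with one of their own number. With the replicate block, 184 members remained, calls were 4 with Lum and 2 with the actin difference, and 16 anchor pairs passed. Signs were checked for called slopes, the 2 members of smallest p per dose comparison and the anchor pairs that passed. None of these reversed under any alternative, and the signs of other slopes and differences were not checked. Of the checked results under alternatives that keep all arrays or drop 3, 1957 stayed on their side of the threshold, 119 lost it and 3 gained it.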

Other observations

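Members outside the large clusters included several enzymes and hormone-linked genes of male and female liver. The female-typical Cyp2c12 was at 10.34 to 12.04 over the 36 arrays with an SD of 0.49, and its closest partner among members was Dmbt1 at r 0.39. Obp3, Dhrs7l1 and Lrtm2 formed a cluster of their own, and Serpinb9b paired with the prolactin receptor Prlr. Stac3 ran from 8.22 to 10.85 and Sult2a6, a bile acid sulfotransferase, from 8.46 to 10.89, and neither joined a cluster.

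Genes of lipid and sterol metabolism did not vary as a single programme, though some pairs were close. Angptl8 had r 0.90 with Mid1ip1, and Abcg8 had r 0.93 with Abcg5. Scd, the fatty acid desaturase, ran from 8.08 to 11.56 and had its closest partner in Igfbp2 (r 0.53) and its most opposite one in Napsa (r -0.65). Cidea, a lipid droplet protein, ran from 5.91 to 8.81, Insig1 from 9.66 to 11.87, and Aacs from 5.80 to 7.59. The 7 members of the fatty acid synthesis list had a median r of 0.054 among themselves, with pairs from -0.39 to 0.80. The amino acid enzymes Asns and Psat1 clustered with the histidine decarboxylase Hdc, apart from Chac1 and Trib3 of the same ATF4 list. The iron hormone Hamp clustered with Abcg8 and Abcg5.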
